A study of Mus musculus with 20 samples.

Results

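RNA bound to tagged ribosomes of epididymal fat was compared between mice after 12 weeks of high-fat diet (HFD) and chow-fed mice. The normalized level of the β-adrenergic receptor *Adrb1* was lower with HFD. That of the β-adrenergic receptor *Adrb3* was lower too, but only at a nominal threshold (edgeR adjusted p = 0.116), and its call rested on single libraries. None of the other 7 genes studied here, from the α receptors to the subunits of protein kinase A, passed the test, although *Pde3b* did under some alternative settings. The set comprised 9 genes: the adrenergic receptors *Adrb1*, *Adrb3*, *Adra1a* and *Adra2a*, the stimulatory G protein α subunit gene *Gnas*, the phosphodiesterases *Pde3b* and *Pde4d*, and the protein kinase A (PKA) subunits *Prkar2b* and *Prkaca*. They were taken as the rows of the gene count table whose Ensembl identifier maps to these symbols, which gave 9 of the 46078 genes in the table, and all 9 were among the 21464 genes that passed the filter on low counts and were tested.

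Noradrenaline from sympathetic nerves acts on fat cells through these receptors. The β receptors couple to the stimulatory G protein, which activates adenylyl cyclase, and the cAMP formed releases the catalytic subunits of PKA from their regulatory subunits, after which PKA phosphorylates proteins of the lipid droplet and lipolysis starts. α2 receptors couple to inhibitory G proteins and restrain the cyclase, α1 receptors act mainly through Gq, and phosphodiesterases break cAMP down, PDE3B being the enzyme through which insulin opposes lipolysis.

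TRAP–seq, in which GFP-tagged ribosomes are pulled out of a tissue lysate and their mRNA is sequenced, was performed on epididymal adipose tissue (epiAT). All 20 mice, controls included, were AdipoERCre x NuTRAP mice, in which an Adipoq-driven, tamoxifen-inducible Cre switches on the ribosome tag in adipocytes, and all were given tamoxifen before the diets began. In the short arm, H mice had 12 weeks of HFD and were 18 weeks old, as were their chow controls C. HC mice had the same HFD followed by 8 weeks of chow for weight loss (WL) and were 26 weeks old. Their controls CC_s had the same age, and each of these 4 groups held 3 mice. In the long arm, HH mice had 25 weeks of HFD and were 31 weeks old, as were CC_l controls, and HHC mice were returned to chow for another 8 weeks and were studied at 39 weeks of age together with CCC controls, with 2 mice in each group. Each mouse is 1 biological replicate, and tagging happened only once, early in life, so that adipocytes formed later may not be tagged. The sample columns of the 2 arms carry different prefixes. Their meaning is not given in the sources used here, so that arm, age and whatever the prefix stands for cannot be told apart and each group was set only against its own chow control.

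The libraries held 10710277 to 36738954 counts on genes. A count of 3 is about the upper 95% limit for an observed 0. It corresponds to 0.280 CPM, the unit of normalized counts scaled to library size, in the shallowest and 0.0817 CPM in the deepest library. This limit covers counting error only. Adipocyte markers (8 listed genes) were above 0 in every library, with summed levels of 12263 to 130641 CPM. The 5 spermatid markers summed to 3114 CPM in CC_l replicate 1, 434 CPM in HC replicate 3 and 90.8 CPM in C replicate 1. In the other libraries they summed to 0.127 to 61.5 CPM, and 3 of the 5 were called higher in HC. CC_l replicate 1 is 1 of the 2 controls of every HH comparison. The part of this RNA in the HH and HC results was not tested. In 4 libraries, C replicates 1 and 2, HC replicate 3 and CCC replicate 2, the summed level of 5 nuclear-retained RNAs was 20450 to 37922 CPM, against 2810 to 12408 CPM in the other 16, and the adipocyte markers were at 12263 to 22381 CPM against 25743 to 130641 CPM. Results that rest on these 4 libraries are given below with and without them, except correlations, which cover all 20 libraries. Leaving them out keeps only replicate 3 in C and only replicate 1 in CCC. Values of H and HHC obtained in this way therefore rest on a single control mouse. C replicate 3 had the highest adipocyte marker level, 130641 CPM. With so few controls a call can be lost without a smaller change, so the log2 fold change is the value to read. Tagged ribosomes are pulled out of a lysate of the whole tissue, and markers of other cells were found in every library. Fewer adipocytes in the lysate and fewer transcripts per adipocyte can therefore not be told apart.

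The upstream sequences of 3 of the genes are shown because *Adrb1* was the receptor with the largest fall in H, though not in HH or HHC, where the estimate for *Adrb3* was lower, and because *Prkar2b* and *Prkaca* encode the regulatory and the catalytic subunit of the same PKA enzyme. RefSeq promoter entries (GRCm38.p6) were matched for 6 of the 9 genes; *Adrb3*, *Adra1a* and *Pde3b* had none. Each line holds the 250 bases before the first listed start site, 5′ to 3′ on the strand of the gene. The *Adrb1* sequence lies on the plus strand at chr19:56721867-56722116, that of *Prkar2b* on the minus strand at chr12:32061278-32061527 and that of *Prkaca* on the plus strand at chr8:83972728-83972977. Capitals mark matches, on either strand, to the cAMP response element (CRE) half-site TGACG, the GC box GGGCGG and the CCAAT box CCAAT.
Adrb1: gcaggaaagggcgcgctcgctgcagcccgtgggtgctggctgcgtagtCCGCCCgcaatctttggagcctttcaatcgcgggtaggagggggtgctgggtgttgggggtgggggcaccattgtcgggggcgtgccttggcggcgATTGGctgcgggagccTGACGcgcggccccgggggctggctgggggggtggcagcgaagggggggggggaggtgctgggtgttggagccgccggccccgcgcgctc
Prkar2b: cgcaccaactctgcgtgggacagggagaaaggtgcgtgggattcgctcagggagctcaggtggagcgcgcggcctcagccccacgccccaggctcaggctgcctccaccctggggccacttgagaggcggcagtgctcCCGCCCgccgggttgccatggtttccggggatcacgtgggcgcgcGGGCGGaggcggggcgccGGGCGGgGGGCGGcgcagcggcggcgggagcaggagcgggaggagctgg
Prkaca: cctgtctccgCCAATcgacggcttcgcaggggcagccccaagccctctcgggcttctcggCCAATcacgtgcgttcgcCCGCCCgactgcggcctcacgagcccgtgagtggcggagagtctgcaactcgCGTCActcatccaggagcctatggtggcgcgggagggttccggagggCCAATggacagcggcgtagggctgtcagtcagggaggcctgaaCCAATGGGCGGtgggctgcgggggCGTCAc

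The *Adrb1* sequence held 1 CRE half-site 90 bases before the start, 1 CCAAT box at 106 bases and 1 GC box at 202 bases. That of *Prkar2b* held 4 GC boxes and neither of the other motifs, and that of *Prkaca* held 4 CCAAT boxes, 2 GC boxes and 2 CRE half-sites, 120 and 6 bases before the start. None of the 3 contained the full CRE TGACGTCA, whose letters include the half-site, or the D-box TTANGTAA. Among 27025 promoters of the same length, 17.9% held the half-site, 32.9% the GC box, 34.5% the CCAAT box, 1.62% the full CRE and 2.11% the D-box. A match of letters is a description and does not show that a factor binds there.

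Set per kilobase of exon, so that genes can be compared with each other, the PKA subunit *Prkar2b* was the most abundant of the 9 genes in the 10 chow mice, with a median of 241 CPM per kb (range 96.5 to 369). It was followed by *Adrb3*, the β3 receptor typical of rodent fat cells, at 103 CPM per kb (59.6 to 201), *Prkaca* at 71.4 (12.7 to 98.3) and *Pde3b* at 29.1 (21.8 to 43.6). *Adrb1*, the β1 receptor, was at 4.57 CPM per kb (1.91 to 6.80), *Pde4d* at 1.08 (0.819 to 1.84), *Adra1a* at 0.582 (0.203 to 0.904), *Adra2a* at 0.319 (0.126 to 0.719) and *Gnas* at 0.233 (0.0872 to 1.20). The ranges of neighbours in this order overlapped except between *Pde3b* and *Adrb1* and between *Adrb1* and *Pde4d*, so that a high set of 4 genes and a low set of 4 genes lay on either side of *Adrb1*. *Gnas* drew only 1404 counts from all 20 libraries together. Its locus carries the overlapping opposite-strand genes *Gm20721* and *Nespas*, which share 13.13% and 8.83% of its exon bases. Of the 50-base words of its transcripts, 18.6% also occur in 2 other genes. Where the strand setting of the counting is not given, its level is uncertain, and so is its place last in this order and in the low set. For *Adrb3*, 24.85% of the exon bases are shared with the antisense gene *Gm45470*, so that reads from the 2 strands of this stretch cannot be told apart either.

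*Adrb1* (ENSMUSG00000035283; chromosome 19, 56722199 to 56733113, plus strand, mm10) fell in H. Its levels in the 3 C mice were 23.0, 17.0 and 9.58 CPM, and those in the 3 H mice were 1.67, 1.74 and 3.84 CPM. All H mice lay below all C mice. The fitted log2 fold change was -2.77 ± 0.48 (SE, n = 3 and 3), a 6.84-fold lower level with a 95% interval of -3.79 to -1.75 on the log2 scale (edgeR quasi-likelihood test, Benjamini-Hochberg adjusted p = 0.00801). Without any 1 of the 6 mice it stayed between -3.27 and -2.43, and without the 4 libraries rich in nuclear-retained RNA it was -1.88. C replicates 1 and 2, the highest in *Adrb1*, are among these 4 libraries.

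After 25 weeks of HFD the 2 HH mice were at 3.01 and 2.72 CPM of *Adrb1*, and the 2 CC_l controls at 6.47 and 7.20 CPM. The groups did not overlap, but the log2 fold change of -1.25 ± 0.57 (SE, n = 2 and 2) did not pass the threshold (edgeR adjusted p = 0.266). CC_l was the lowest of the chow groups in *Adrb1*, the other 8 chow mice lying between 9.58 and 23.0 CPM. The difference between the effects of the shorter and the longer HFD was 1.52 ± 0.73 on the log2 scale and did not pass either (edgeR adjusted p = 0.855).

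After weight loss, *Adrb1* in HC mice was at 4.05, 10.4 and 6.35 CPM, whereas CC_s mice were at 17.7, 19.2 and 13.9 CPM. Each HC mouse lay below each CC_s mouse, with a log2 fold change of -1.29 ± 0.46 (SE, n = 3 and 3) that missed the threshold (edgeR adjusted p = 0.536). It passed the nominal threshold under 3 of the alternatives, DESeq2, halved counts and a nuclear-retained RNA covariate, and without HC replicate 2, where it was -1.71. In HHC the levels were 13.7 and 8.40 CPM against 11.7 and 19.98 CPM in CCC, so that the groups overlapped, and the log2 fold change was -0.52 ± 0.55 (edgeR adjusted p = 0.777). Averaged over both arms, the log2 fold change after weight loss was -0.90 ± 0.36 (edgeR adjusted p = 0.415), whereas that under HFD was -2.01 ± 0.37 (edgeR adjusted p = 0.00295). The difference between these effects, 1.11 ± 0.51, did not pass the test (edgeR adjusted p = 0.307).

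Ordered by group mean, *Adrb1* stood at 17.0 ± 2.72 CPM (SD) in CC_s, 16.5 ± 6.71 in C, 15.8 ± 5.85 in CCC, 11.1 ± 3.78 in HHC, 6.95 ± 3.24 in HC, 6.83 ± 0.522 in CC_l, 2.87 ± 0.202 in HH and 2.42 ± 1.23 in H. Of the neighbours in this order, CC_l and HH were the one pair whose mice did not overlap.

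**Figure D1:**
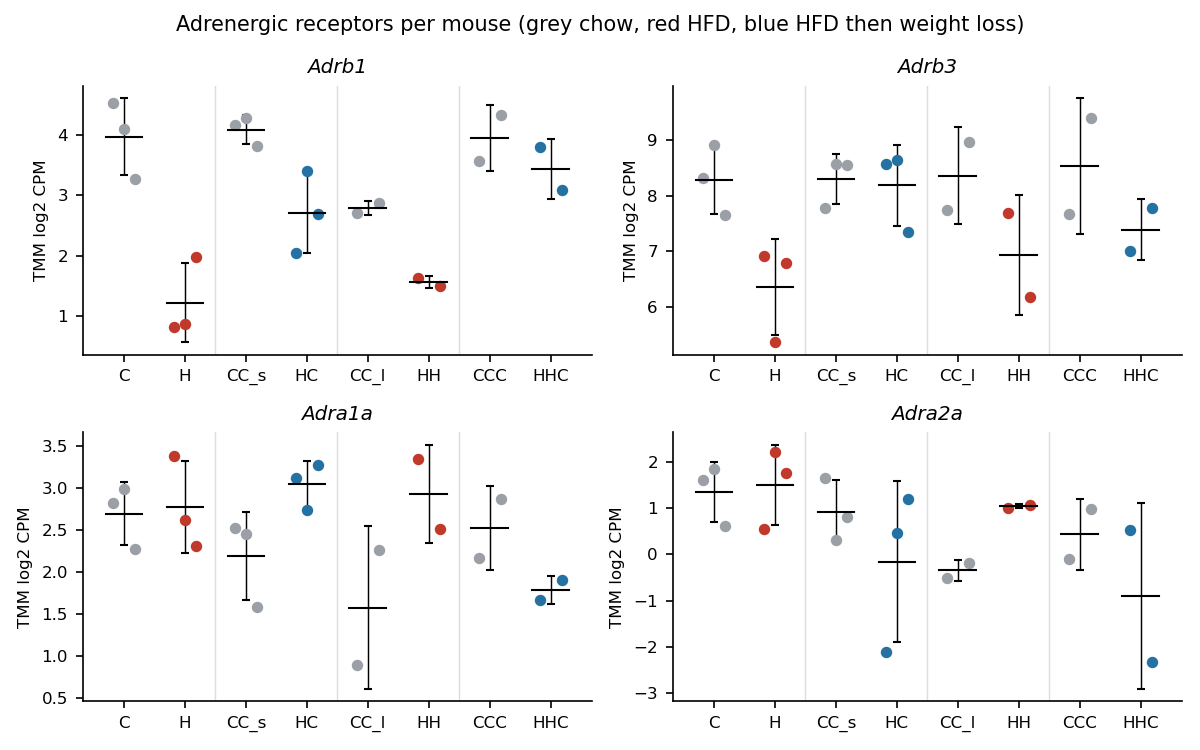
TMM-normalized log2 CPM (y axis) of the 4 adrenergic receptors in each of the 20 mice, by group (x axis); points are mice (grey chow, red HFD, blue HFD then weight loss), bars the group mean and whiskers 1 SD. *Adrb1* and *Adrb3* were lower in every H mouse than in every C mouse, and *Adra2a* ranged from 0.108 to 4.57 CPM.

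*Adrb3* (ENSMUSG00000031489; chromosome 8, 27225776 to 27250616, minus strand) also fell in H. The C mice had 320, 482 and 201 CPM and the H mice 121, 40.9 and 111 CPM. Again no H mouse reached the lowest C mouse, and the log2 fold change was -1.88 ± 0.60 (SE, n = 3 and 3), a 3.68-fold lower level that passed the nominal threshold but not the adjusted one (edgeR adjusted p = 0.116). This call rested on single libraries: it was lost without C replicate 1 (-1.89), C replicate 2 (-1.52), H replicate 2 (-1.53) or H replicate 3 (-2.05). Without the 4 libraries rich in nuclear-retained RNA the value was -1.04.

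The HH mice had 208 and 72.1 CPM of *Adrb3* and the CC_l mice 214 and 505 CPM. Both HH mice lay below both controls, the nearest pair being almost level, and the log2 fold change of -1.36 ± 0.73 (SE, n = 2 and 2) was not significant (edgeR adjusted p = 0.341). Over both arms, the log2 fold change under HFD was -1.62 ± 0.48, which passed both thresholds (edgeR adjusted p = 0.0399), although the call was lost without CC_l replicate 2 (-1.23) or HH replicate 2 (-1.32). Without the 4 libraries rich in nuclear-retained RNA the value over both arms was -1.20, which missed the nominal threshold.

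After weight loss in the short arm, *Adrb3* was at 384, 399 and 162 CPM in HC and at 221, 380 and 378 CPM in CC_s. The groups overlapped in full and the log2 fold change was -0.05 ± 0.58 with a 95% interval of -1.28 to 1.18 (edgeR adjusted p = 0.994). In the long arm, HHC mice were at 128 and 219 CPM and CCC mice at 203 and 677 CPM, giving -1.34 ± 0.73 (edgeR adjusted p = 0.532). That value was -0.23 without CCC replicate 2, the mouse at 677 CPM, whose library is 1 of the 4 rich in nuclear-retained RNA. The group means of *Adrb3* fell in the order CCC, CC_l, C, CC_s, HC, HHC, HH and H, from 440 ± 335 to 90.8 ± 43.5 CPM (SD), and all neighbours in this order overlapped.

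Markers of other cells differed in the same HFD comparisons as *Adrb1* and *Adrb3*. Of 10 macrophage markers, none at 0 in any library, 7 were called higher in H and 10 in HH, with summed levels of 626 to 3361 CPM in H against 224 to 421 in C and 3367 to 4441 CPM in HH against 208 to 410 in CC_l. Over the 20 libraries their summed level correlated with *Adrb1* at r = -0.66 and with *Adrb3* at r = -0.63, as a description. In HC, 6 of these markers were called higher, whereas the log2 fold change of *Adrb3* was -0.05 and that of *Adrb1* -1.29. Other lists correlated with *Adrb1* too, among them the nuclear-retained RNAs (r = 0.62), the endothelial markers (-0.49) and the mesothelial markers (0.49). For *Adrb3* these values were 0.40, -0.44 and 0.40. The 8 adipocyte markers summed to 31150 to 57381 CPM in H against 20392 to 130641 in C and to 25743 to 31857 CPM in HH against 56942 to 62259 in CC_l, and their median log2 fold change was -0.52 in H (1 called higher) and -1.11 in HH (0 called). Over all 20 libraries they correlated with *Adrb1* at r = 0.07 and with *Adrb3* at r = 0.02. The 4 libraries rich in nuclear-retained RNA had the lowest adipocyte marker sums, 12263 to 22381 CPM. Their median *Adrb1* was 18.5 CPM against 7.80 in the other 16, and their median *Adrb3* 401 against 211 CPM. Correlations without these 4 libraries were not computed, so the 2 values do not show that receptor and adipocyte marker levels are unrelated. The part of these markers in the 2 falls was not tested.

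*Adra1a*, the α1A receptor, was at 1.77 to 10.3 CPM in all 20 mice. In H the mice were at 10.3, 6.09 and 4.90 CPM and in C at 6.97, 7.89 and 4.75 CPM, which overlapped. The HH mice were at 10.1 and 5.63 CPM, above the CC_l mice at 1.77 and 4.72 CPM, with a log2 fold change of 1.28 ± 0.61 that missed the threshold (edgeR adjusted p = 0.287). The HC mice were at 8.59, 6.59 and 9.62 CPM and the CC_s mice at 5.69, 5.41 and 2.92 CPM, so that the groups were apart, at a log2 fold change of 0.82 ± 0.49 (edgeR adjusted p = 0.624). In the long arm the HHC mice, at 3.10 and 3.66 CPM, lay below the CCC mice at 4.42 and 7.25 CPM (-0.78 ± 0.61, edgeR adjusted p = 0.671).

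*Adra2a*, the antilipolytic α2A receptor, was near the detection limit in several mice, with 2 to 168 counts per library. It was at 2.94, 3.47 and 1.43 CPM in C and at 1.37, 4.57 and 3.26 CPM in H. The 2 HH mice were at 1.92 and 2.00 CPM and the CC_l mice at 0.610 and 0.786 CPM, so that these groups did not overlap, but the log2 fold change of 1.48 ± 1.16 was not significant (edgeR adjusted p = 0.521). After weight loss it was at 0.137, 1.28 and 2.18 CPM in HC against 3.04, 1.15 and 1.65 CPM in CC_s, and at 1.34 and 0.108 CPM in HHC against 0.836 and 1.87 CPM in CCC. The HHC mouse at 0.108 CPM rests on 2 counts and the HC mouse at 0.137 CPM on 4 counts.

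The balance of the lipolytic to the antilipolytic receptor was followed as the difference in log2 CPM between *Adrb3* and *Adra2a* in each mouse. It was 6.72, 7.08 and 7.04 in C and 6.37, 3.14 and 5.04 in H, and 8.25 and 9.17 in CC_l against 6.69 and 5.11 in HH. In both arms every HFD mouse lay below every control. Over both arms the difference fell by 2.45 on the log2 scale (exact two-sided permutation test within arms, p = 0.0167, the smallest that 120 regroupings can give; adjusted p = 0.1 over 6 tests). It stayed between -2.85 and -2.02 without any 1 mouse and at -2.50 without the 4 libraries rich in nuclear-retained RNA. After weight loss it was 10.7, 8.18 and 6.16 in HC against 6.14, 8.26 and 7.76 in CC_s, and 6.49 and 10.1 in HHC against 7.78 and 8.43 in CCC, which overlapped in both arms (0.57 over both arms, exact two-sided permutation test, p = 0.567, adjusted p = 0.740). The difference between *Adrb3* and *Adrb1* did not pass the test with HFD (0.30 over both arms, exact permutation p = 0.550, adjusted p = 0.740) or after weight loss (0.31, exact permutation p = 0.617, adjusted p = 0.740). *Adra2a* followed the endothelial marker list across the 20 libraries (Pearson's r = 0.71 of log2 CPM, given as a description over libraries that share groups and depth), and that list is described with the cyclases below. Its part in the ratio was not tested.

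**Figure D2:**
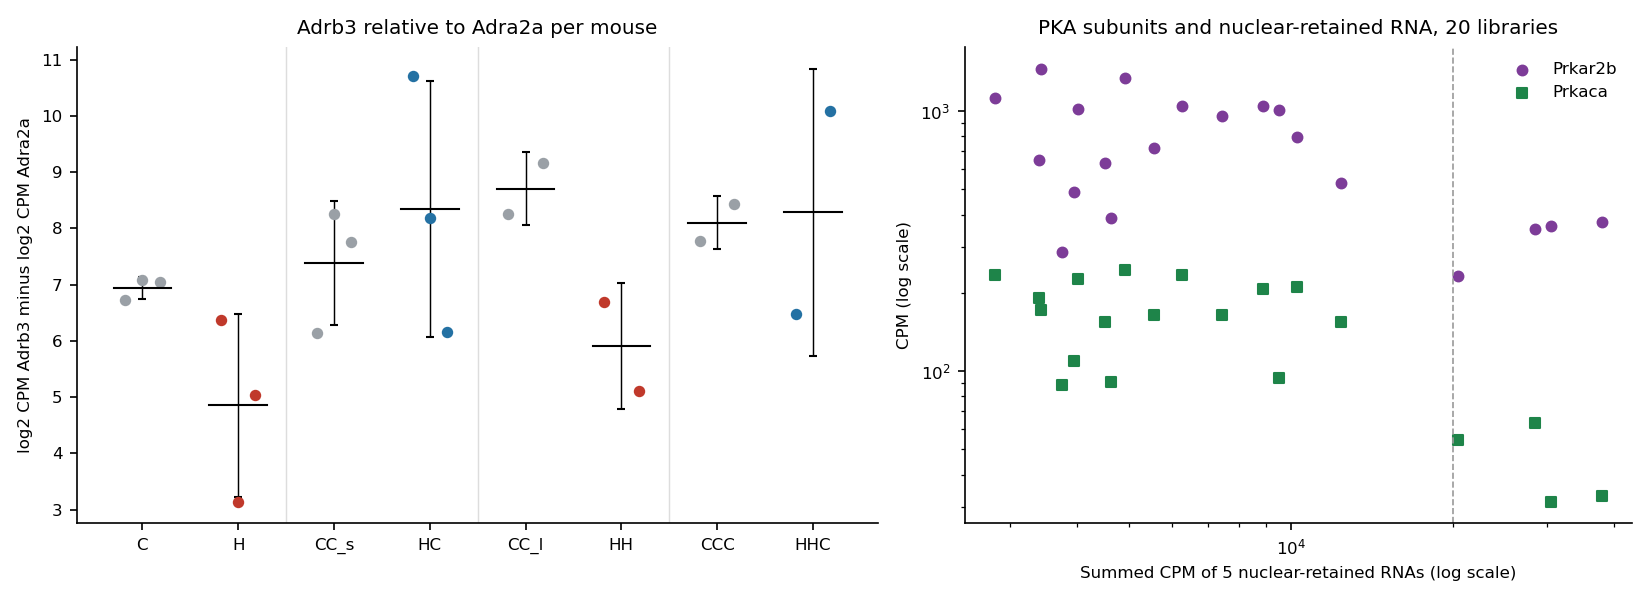
Left, log2 CPM of *Adrb3* minus log2 CPM of *Adra2a* (y axis) in each mouse by group, with group mean and 1 SD; H and HH mice lay below their controls. Right, CPM of *Prkar2b* and *Prkaca* (y axis, log scale) against the summed CPM of 5 nuclear-retained RNAs (x axis, log scale) in 20 libraries, with a dashed line at 20000 CPM; *Prkaca* was at 31.5 to 63.2 CPM in the 4 libraries beyond it and at 88.4 to 245 CPM in the other 16.

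*Gnas*, which couples the β receptors to adenylyl cyclase, was at 5.01, 13.4 and 1.97 CPM in C and at 2.78, 2.39 and 2.83 CPM in H. The spread in C covered the H mice, and the log2 fold change of -1.35 ± 0.84 was not significant (edgeR adjusted p = 0.433). Its sign turned to 0.55 without the 4 libraries rich in nuclear-retained RNA, in which *Gnas* stood at 2.63 to 13.4 CPM against 0.539 to 6.09 CPM in the other 16. The log2 fold changes in the other comparisons were 0.41 ± 1.03 in HH (edgeR adjusted p = 0.874), 0.27 ± 0.83 in HC (edgeR adjusted p = 0.954) and 0.37 ± 1.03 in HHC (edgeR adjusted p = 0.948). All these *Gnas* values share the uncertainty from its overlapping genes described above.

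*Pde3b* was uniform among H mice. It was at 251, 256 and 291 CPM in C and at 136, 137 and 134 CPM in H, so that the groups were apart. The log2 fold change of -0.97 ± 0.37 (SE, n = 3 and 3) missed both the p and the fold threshold by a small margin (edgeR adjusted p = 0.187), and it was past them with RLE normalization (-1.06), in DESeq2 (-1.06) and with the nuclear-retained RNA covariate (-1.18). In HH *Pde3b* was at 171 and 153 CPM against 223 and 274 CPM in CC_l (-0.62 ± 0.45, edgeR adjusted p = 0.489), again without overlap. Over both arms the log2 fold change under HFD was -0.79 ± 0.29 (edgeR adjusted p = 0.0932). After weight loss the groups overlapped, at 241, 253 and 125 CPM in HC against 199, 329 and 280 CPM in CC_s and at 152 and 292 CPM in HHC against 228 and 397 CPM in CCC, with log2 fold changes of -0.38 ± 0.37 (edgeR adjusted p = 0.791) and -0.49 ± 0.45 (edgeR adjusted p = 0.729).

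*Pde4d*, a cAMP-specific phosphodiesterase, did not differ with HFD beyond the spread between mice. It was at 13.3, 12.0 and 12.2 CPM in H and 16.9, 15.8 and 10.9 CPM in C (-0.22 ± 0.33, edgeR adjusted p = 0.778), and at 11.5 and 10.3 CPM in HH and 10.6 and 13.0 CPM in CC_l (-0.11 ± 0.40, edgeR adjusted p = 0.920). After weight loss in the short arm, it was at 21.3, 24.1 and 18.2 CPM in HC, above all CC_s mice at 10.5, 9.83 and 14.1 CPM. This log2 fold change of 0.88 ± 0.33 missed both the p and the fold threshold (edgeR adjusted p = 0.541). In the long arm the HHC mice, at 23.0 and 12.1 CPM, spanned the CCC mice at 13.0 and 22.1 CPM (-0.0036 ± 0.40, edgeR adjusted p = 1.00).

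**Figure D3:**
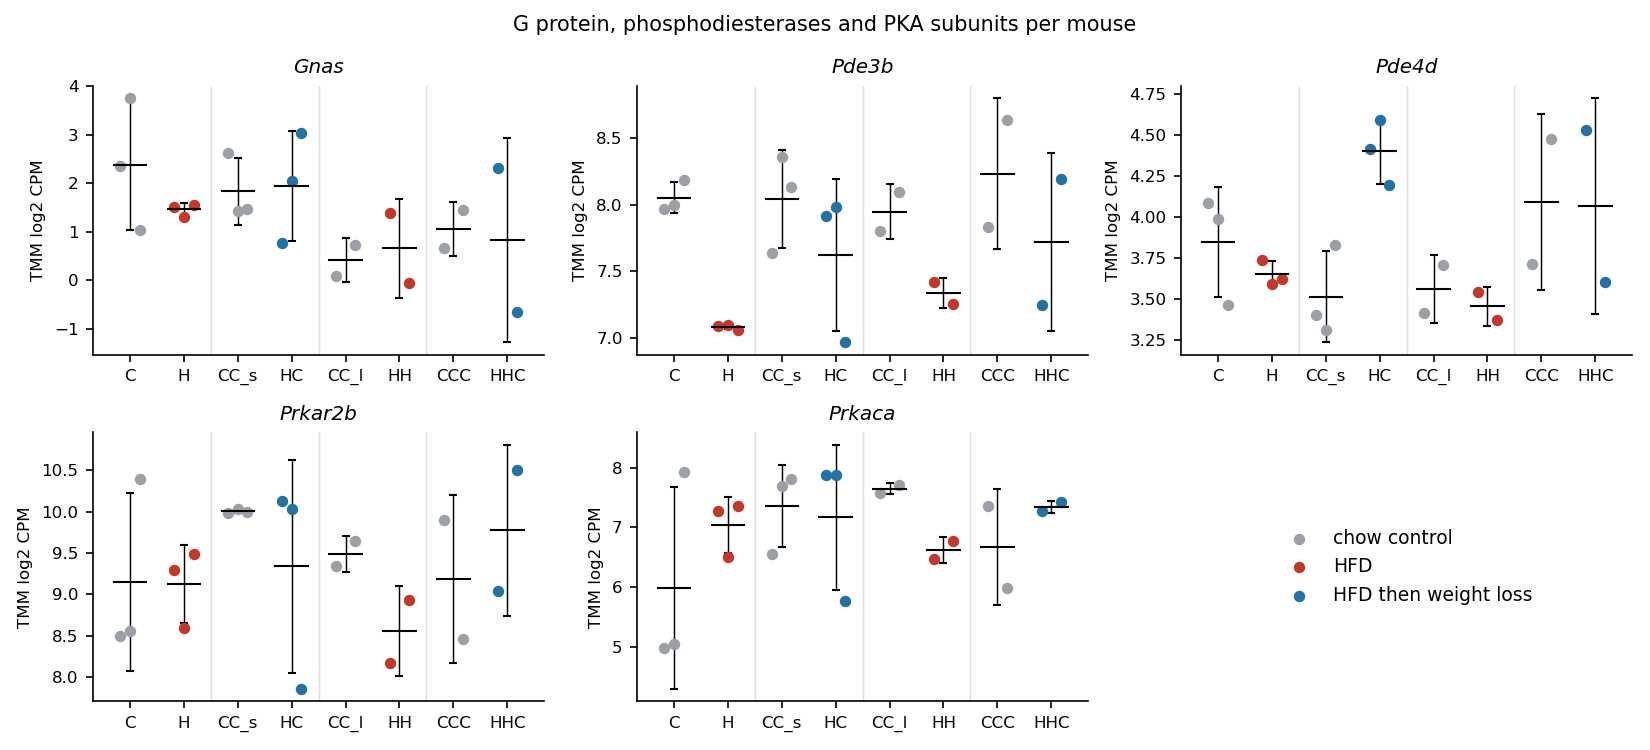
TMM-normalized log2 CPM (y axis) of *Gnas*, *Pde3b*, *Pde4d*, *Prkar2b* and *Prkaca* in each of the 20 mice, by group (x axis), with group mean and 1 SD. The 3 H mice were within 134 to 137 CPM of *Pde3b*, below all C mice, whereas *Prkaca* in C ranged from 31.5 to 245 CPM.

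*Prkar2b*, the RIIβ regulatory subunit that predominates in fat, was at 362, 375 and 1346 CPM in C and at 629, 387 and 720 CPM in H, which overlapped (-0.26 ± 0.64, edgeR adjusted p = 0.878). The HH mice, at 287 and 490 CPM, lay below the CC_l mice at 647 and 798 CPM, but the log2 fold change of -0.90 ± 0.79 was not significant (edgeR adjusted p = 0.579). It was at 1122, 1048 and 231 CPM in HC against 1014, 1047 and 1023 CPM in CC_s, and at 528 and 1457 CPM in HHC against 959 and 353 CPM in CCC. The 3 CC_s mice were the closest to each other, whereas 1 low mouse each in HC and CCC set the spread of those groups.

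*Prkaca*, the catalytic subunit, was at 31.5, 33.0 and 245 CPM in C, at 154, 91.2 and 164 CPM in H, at 94.5, 208 and 225 CPM in CC_s and at 234, 234 and 54.2 CPM in HC. In the long arm it was at 192 and 210 CPM in CC_l, 88.4 and 110 CPM in HH, 164 and 63.2 CPM in CCC and 155 and 171 CPM in HHC. HH lay below CC_l (-1.02 ± 0.85, edgeR adjusted p = 0.552), and the log2 fold changes were 0.40 ± 0.69 in H (edgeR adjusted p = 0.809), -0.016 ± 0.69 in HC (edgeR adjusted p = 1.00) and 0.52 ± 0.84 in HHC (edgeR adjusted p = 0.869).

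The low values of both PKA subunits in C, HC and CCC belong to the 4 libraries rich in nuclear-retained RNA, where *Prkar2b* was at 231 to 375 CPM against 287 to 1457 CPM in the other 16 libraries. Leaving these libraries out turned the log2 fold change of *Prkaca* in H to -0.73. It moved that of *Prkar2b* under HFD over both arms from -0.58 ± 0.51 (edgeR adjusted p = 0.496) to -1.01. Across the 20 libraries, which share groups and depth, *Prkar2b* and *Prkaca* correlated with each other (Pearson's r = 0.79; 0.87 after removing group means) and *Prkar2b* with the summed adipocyte markers (r = 0.94), as a description. Set against *Prkar1a*, the widely expressed RIα subunit, *Prkar2b* was lower under HFD by 0.82 on the log2 scale over both arms, which was not significant (exact two-sided permutation test, p = 0.117, adjusted p = 0.350), and -0.08 after weight loss (exact permutation p = 0.983, adjusted p = 0.983).

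Of the 9 genes, 2 were called in H, both lower, where 2.92% of all 21464 tested genes were called lower and 6.49% in either direction. A call needs a nominal p under 0.01 and a change of 1 or more on the log2 scale, and only *Adrb1* was under an adjusted p of 0.05 as well (background 2.12%). None was called in HH (background 6.79%), HC (1.74%) or HHC (3.12%). Over both arms, 2 were called under HFD (*Adrb1* and *Adrb3*, both lower, where 4.73% of all genes were called lower and 11.4% in either direction; both were under an adjusted p of 0.05, as were 9.45% of all genes) and none after weight loss (2.53%). At an unadjusted p under 0.05 in edgeR, 3 genes stood in H (*Adrb1*, *Adrb3* and *Pde3b*), 2 in HH (*Adrb1* and *Adra1a*), 2 in HC (*Adrb1* and *Pde4d*), 0 in HHC and 1 after weight loss over both arms (*Adrb1*). Of all 21464 tested genes, 3665 stood there in H, 3732 in HH, 1866 in HC, 2292 in HHC and 2089 after weight loss over both arms. DESeq2 called 3 in H, 1 in HC and 0 in HH, in HHC and after weight loss over both arms. No share over all genes was taken for DESeq2. The median log2 fold change of the 9 genes was -0.26 in H, where that of all tested genes was -0.15, -0.05 against 0.27 in HC, -0.62 against -0.23 in HH and -0.49 against -0.06 in HHC. Groups did not overlap for 3 of 9 genes in H (background 25.1%), 3 in HC (13.8%), 7 in HH (55.3%) and 1 in HHC (28.8%). No member passed the test of a difference between the HFD and the weight-loss effect, in either arm or over both, or between the shorter and the longer HFD, at an adjusted p under 0.05, which held for 0% of all genes in the short arm, 0.815% in the long arm, 1.23% over both and 0% between the 2 durations.

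**Figure D4:**
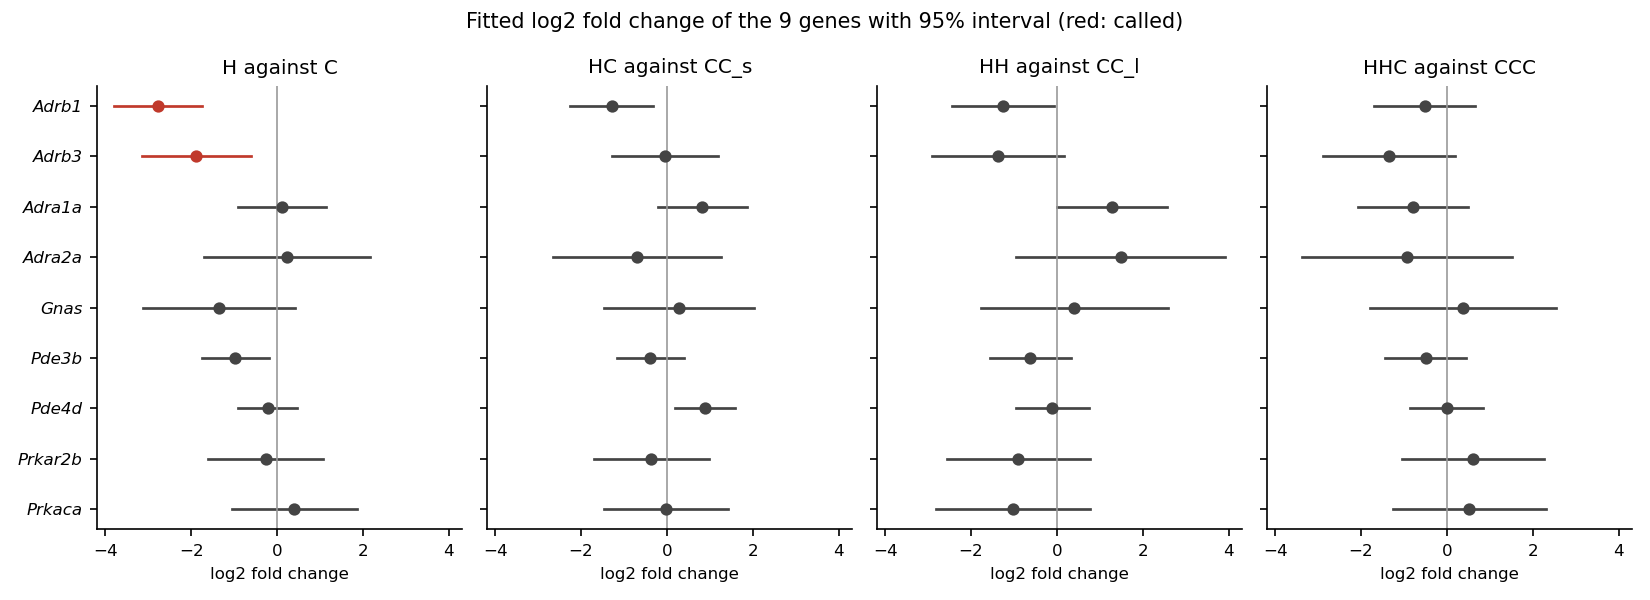
Fitted log2 fold change (x axis) of the 9 genes (rows) in each HFD or weight-loss group against its own chow control (panels), with the 95% interval; red marks called genes. *Adrb1* (-2.77) and *Adrb3* (-1.88) in H were called, and no gene in the other 3 panels.

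Each gene was also set beside the 11060 genes with a mean log2 CPM of at least 2, to find those whose levels over the 20 libraries were most like it; the correlations are descriptions over libraries that share groups. For *Adrb1* these were *Tef* (Pearson's r = 0.94), a transcription factor of the PAR bZIP family that binds D-box sequences, and *Trit1* (0.90). For *Adrb3* they were *Acss3* and *Srpk2* (0.88 each), and for *Pde3b* *Lgals12* (0.93), which encodes an adipocyte galectin on lipid droplets, and *Prkd1* (0.88). *Prkar2b* was closest to *Gnai1* (0.98) and *Dctn6* (0.97), and *Prkaca* to *Opa3* and *Pxmp4* (0.97 each). *Gnas* was closest to *Prrc2c* and *Plekhg3* (0.92 each), and *Adra2a* to *Gm38197* (0.90) and *Cemip2* (0.89). *Adra1a* was closest to *Peg3* (0.80) and *Inpp5f* (0.78), and *Pde4d* to *Osr1* (0.78) and *Pag1* (0.77), the lowest values of the 9.

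Around these 9 genes, 86 of 87 listed genes of the pathway were measured, and all 86 were tested. In H, 7 were called higher and 4 lower, where 6.49% of all tested genes were called. In HH, 7 were called higher and 2 lower (background 6.79%), in HC 0 (1.74%) and in HHC 2 higher and 3 lower (3.12%). At an unadjusted p under 0.05 in edgeR, 4 of the 86 stood in HC, as did 1866 of all 21464 tested genes. DESeq2 called 2 there, for which no share over all genes was taken. Over both arms, 11 were called higher and 5 lower under HFD (11.4%), and 3 higher and 1 lower after weight loss (2.53%). The median log2 fold change of the 86 genes was 0.03 in H, 0.06 in HH, 0.32 in HC and -0.15 in HHC, where that of all tested genes was -0.15, -0.23, 0.27 and -0.06. None of the 5 other adrenergic receptors was called in any of the 4 comparisons by edgeR's test, and none was at an unadjusted p under 0.05 either.

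Among the 14 G protein subunits, *Gng2* and *Gnai2* were called higher in H, *Gnai2* only at the nominal threshold. *Gng2*, a γ subunit, was at 9.91, 10.6 and 19.5 CPM in C and 54.6, 42.6 and 46.6 CPM in H, with no overlap (1.84 ± 0.34, edgeR adjusted p = 0.00996). At the nominal threshold only, it was called higher in HHC too, at 101 and 43.9 CPM against 20.3 and 19.5 CPM in CCC (1.86 ± 0.41, edgeR adjusted p = 0.170). *Gnai2*, an inhibitory α subunit whose call was lost without the 4 libraries rich in nuclear-retained RNA (1.31), was at 93.3, 141 and 184 CPM in C and 494, 338 and 441 CPM in H (1.60 ± 0.43, edgeR adjusted p = 0.0636). *Gnal*, which encodes an α subunit that also stimulates the cyclase, was called higher in HHC at the nominal threshold only. The HHC mice were at 28.7 and 121 CPM of *Gnal* against 12.6 and 10.8 CPM in CCC (2.68 ± 0.69, edgeR adjusted p = 0.207). Without HHC replicate 2, the mouse at 121 CPM, the value of *Gnal* was 1.29, without CCC replicate 2 it was 2.57, and in both cases the call was lost. The call of *Gng2* in HHC was lost without HHC replicate 1 (1.13). *Gnb4*, a β subunit, was lower in HHC at 33.4 and 13.6 CPM against 73.4 and 83.8 CPM in CCC (-1.74 ± 0.47, edgeR adjusted p = 0.227; -1.23 and not called without HHC replicate 2).

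Of the 10 adenylyl cyclases, which make cAMP, *Adcy5* and *Adcy7* were called higher in both H and HH. Of these calls, only that of *Adcy5* in H was under an adjusted p of 0.05. *Adcy5* was at 30.3, 30.9 and 37.2 CPM in C, 87.9, 103 and 77.6 CPM in H, 44.6 and 47.5 CPM in CC_l and 119 and 84.2 CPM in HH, without overlap in either arm. Its log2 fold changes were 1.45 ± 0.32 in H (edgeR adjusted p = 0.0250) and 1.14 ± 0.39 in HH (edgeR adjusted p = 0.136). *Adcy7* was at 7.24, 7.54 and 2.24 CPM in C and 18.8, 49.8 and 6.62 CPM in H, which overlapped, and at 5.67 and 10.2 CPM in CC_l and 38.8 and 54.3 CPM in HH, which did not. Its log2 fold changes were 2.15 ± 0.59 in H (edgeR adjusted p = 0.0656) and 2.56 ± 0.73 in HH (edgeR adjusted p = 0.0772). The call in H was lost without H replicate 2 (1.17) or C replicate 3 (1.76), that in HH without CC_l replicate 1 (2.204) or HH replicate 2 (2.31), and that of *Adcy5* in HH without HH replicate 1 (0.89), CC_l replicate 1 (1.11) or CC_l replicate 2 (1.21).

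*Adcy4* was called higher in HH and lower in HHC, the latter only at the nominal threshold. It was at 43.1 and 23.7 CPM in HH against 2.68 and 3.80 CPM in CC_l (3.37 ± 0.72, edgeR adjusted p = 0.0279). It was at 1.84 and 2.91 CPM in HHC against 10.3 and 19.4 CPM in CCC (-2.63 ± 0.71, edgeR adjusted p = 0.231). In H it was at 35.3, 47.9 and 36.3 CPM against 21.6, 20.5 and 10.2 CPM in C, above every control but not called (1.19 ± 0.54, edgeR adjusted p = 0.273). The call in HHC was lost without CCC replicate 2 (-2.11) or HHC replicate 1 (-2.35). Endothelial markers differed in the same comparisons: of 6 listed genes, 6 were called higher in HH, 4 higher in H and 2 lower in HHC. Their summed levels were 722 to 1359 CPM in HH against 135 to 147 in CC_l, 1064 to 1602 in H against 237 to 542 in C, and 74.2 to 98.4 in HHC against 241 to 491 in CCC, none of them at 0 in any library. Their part in the *Adcy4* result was not tested.

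Among 13 measured phosphodiesterases of the list, 3 were called higher and 1 lower in H (background 6.49%). In HH, 4 were called higher and 1 lower (background 6.79%). The gene called lower was *Pde1a* in both. Its log2 fold change was -1.65 ± 0.51 in H (edgeR adjusted p = 0.102) and -1.86 ± 0.63 in HH (edgeR adjusted p = 0.135), without overlap of the groups in either. Over both arms it was -1.76 ± 0.40 (edgeR adjusted p = 0.0118). How far the calls of *Pde1a* rest on single mice is not reported here. *Pde4b* was at 18.8, 19.4 and 9.94 CPM in C and 71.3, 85.5 and 60.3 CPM in H (2.17 ± 0.63, edgeR adjusted p = 0.0816), and at 7.01 and 6.81 CPM in CC_l and 57.3 and 39.1 CPM in HH (2.80 ± 0.79, edgeR adjusted p = 0.0762). Every HFD mouse lay above every control. The call in H was lost without C replicate 3 (1.92) and that in HH without CC_l replicate 1 (2.83), CC_l replicate 2 (2.81) or HH replicate 1 (2.52). *Pde1b*, a calcium-dependent form, rose in H from 2.61, 3.87 and 4.21 CPM to 12.2, 19.2 and 12.3 CPM (2.03 ± 0.48, edgeR adjusted p = 0.0392). *Pde3a*, the paralogue of *Pde3b*, was at 23.0 and 14.3 CPM in HH against 3.11 and 3.93 CPM in CC_l (2.41 ± 0.74, edgeR adjusted p = 0.103), the opposite sign to *Pde3b* in the same mice, and *Pde7b* was at 10.1 and 8.40 CPM in HH against 1.89 and 2.23 CPM (2.17 ± 0.72, edgeR adjusted p = 0.130). The call of *Pde3a* was lost without CC_l replicate 1 (2.25), CC_l replicate 2 (2.61) or HH replicate 1 (2.04). That of *Pde7b* was lost without any 1 of the 4 mice (2.05 to 2.32). Without the 4 libraries rich in nuclear-retained RNA, which keeps only replicate 3 in C, the log2 fold changes in H were 2.98 for *Pde4b* and 1.91 for *Pde1b*.

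Markers of other cells were called higher in the same HFD comparisons as these pathway genes. Correlations between these genes and the marker lists were not computed. Beside the macrophage and endothelial markers, 4 of 6 adipocyte progenitor markers were called higher in HH, 1 in H, 1 in HC and 0 in HHC, with summed levels of 3149 to 4320 CPM in HH against 397 to 598 in CC_l. Of 7 smooth muscle and pericyte markers, 3 were called higher in HH and 0 in the other comparisons, with 739 to 1228 CPM in HH against 202 to 211 in CC_l. No marker of these lists was at 0 in any library. After weight loss, 6 of the 10 macrophage markers were called higher in HC (538 to 1430 CPM against 205 to 303 in CC_s) and 0 in HHC (731 to 1064 CPM against 761 to 874 in CCC). The part of these cells in the rise of *Adcy7*, *Pde4b*, *Gnai2* and the other genes called higher was not tested.

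Among 7 other PKA subunits and inhibitors, 2 cAMP-gated exchange factors and 7 genes of the CREB family and its coactivators, none was called in any of the 4 comparisons by edgeR's test. After weight loss over both arms, the PKA inhibitor *Pkib*, named after its values were seen, was called higher (2.96 ± 0.95, edgeR adjusted p = 0.331). There 2.53% of all tested genes were called. Its log2 fold change was 3.24 ± 1.22 in HC (edgeR adjusted p = 0.541) and 2.68 ± 1.43 in HHC (edgeR adjusted p = 0.526). Of 11 A-kinase anchoring proteins, which tether PKA, *Akap8* and *Akap8l* were called lower in H. *Akap8* was at 149, 163 and 66.6 CPM in C and 44.4, 57.2 and 43.5 CPM in H (-1.38 ± 0.37, edgeR adjusted p = 0.0608), but without the 4 libraries rich in nuclear-retained RNA the value was -0.35 and not called. *Akap8l* was at 74.9, 82.5 and 48.1 CPM in C and 35.9, 28.8 and 36.1 CPM in H (-1.03 ± 0.30, edgeR adjusted p = 0.0881), which became -0.41 and not called in the same way, as did its fall in HHC (-1.36 ± 0.38, edgeR adjusted p = 0.237; -0.84 without those libraries). The call of *Akap8l* in H was also lost without C replicate 1 (-0.93), C replicate 2 (-0.88) or H replicate 2 (-0.93). That in HHC was lost without CCC replicate 2 (-0.93) or HHC replicate 2 (-1.11).

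Of 7 receptor kinases and arrestins, *Grk4* was called lower in HH, at 4.01 and 4.40 CPM against 38.9 and 5.63 CPM in CC_l (-2.40 ± 0.81, edgeR adjusted p = 0.135). This call rested on CC_l replicate 1, without which the value was -0.41, and was also lost without HH replicate 1 (-2.31) or HH replicate 2 (-2.45). In the CC_l replicate 1 library the 5 spermatid markers summed to 3114 CPM, against 9.04 CPM in the other CC_l library. Their part in the result was not tested. Of 10 cAMP-responsive genes, *Ppargc1a*, a transcriptional coactivator induced by cAMP, was the only one called in any of the 4 comparisons with a group's own control. Over both arms under HFD it was called lower (-1.70 ± 0.37, edgeR adjusted p = 0.00789), and the immediate-early gene *Fos*, named after its values were seen, was called higher (2.26 ± 0.62, edgeR adjusted p = 0.0294). *Ppargc1a* fell in H, at 5.40, 3.21 and 3.26 CPM against 18.4, 21.9 and 11.5 CPM in C, without overlap (-2.12 ± 0.47, edgeR adjusted p = 0.0264). In HH it was at 4.92 and 4.81 CPM against 9.12 and 14.7 CPM in CC_l (-1.29 ± 0.56, edgeR adjusted p = 0.249), and after weight loss in the short arm at 5.02, 8.27 and 13.5 CPM in HC against 6.09, 10.6 and 8.49 CPM in CC_s (0.09 ± 0.45, edgeR adjusted p = 0.977). In the long arm the HHC mice, at 9.55 and 5.39 CPM, lay below the CCC mice at 9.92 and 20.4 CPM, without passing the test (-1.02 ± 0.56, edgeR adjusted p = 0.535). Without the 4 libraries rich in nuclear-retained RNA the value of *Ppargc1a* in H was -1.42, which missed the threshold.

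**Figure D5:**
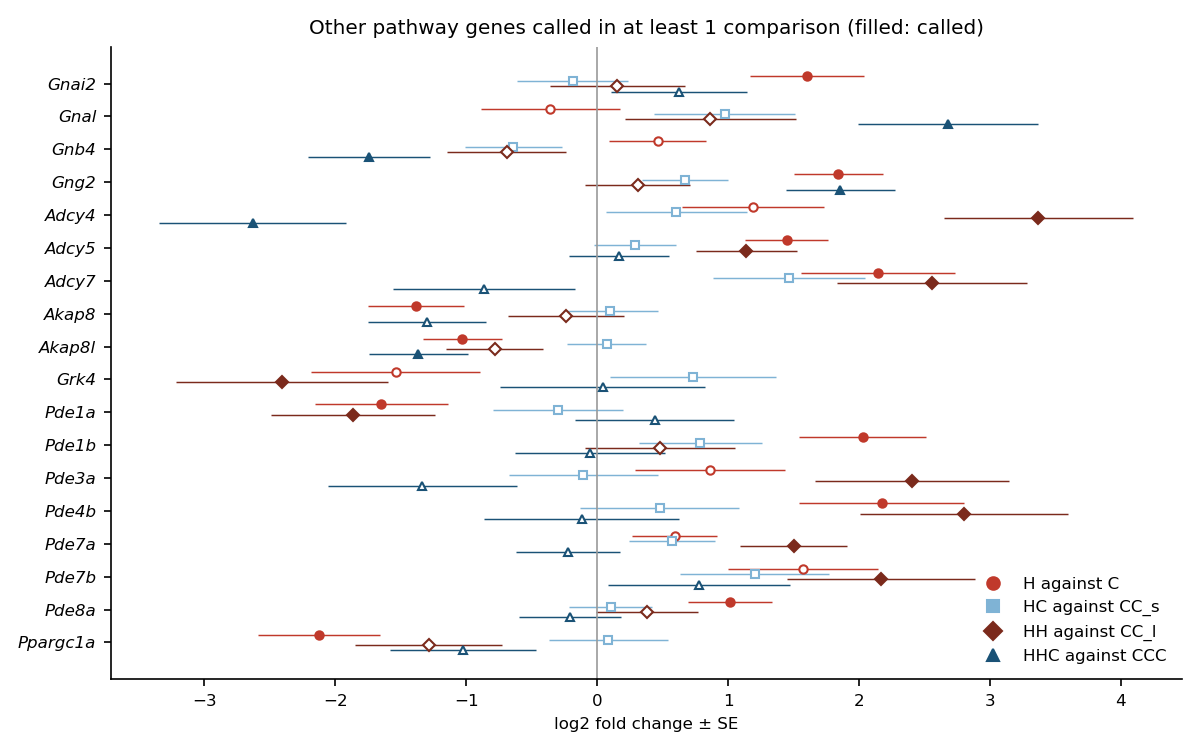
Log2 fold change ± SE (x axis) of the 18 other pathway genes (rows) that were called in at least 1 of the 4 comparisons; shapes and colours mark the comparison and filled symbols a call. *Adcy4* was at 3.37 in HH and -2.63 in HHC, and *Gng2* at 1.84 in H and 1.86 in HHC.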

How the data were processed

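TRAP–seq libraries of 20 mice in 8 groups were analysed. The authors trimmed reads with Trim Galore 0.6.6, aligned them to mm10 with HISAT2 2.2.1 and counted them with featureCounts (Subread 2.0.1). They deposited raw read counts per gene and mouse. Annotation, strand and read-pair settings are not given in the sources used here. Of nonzero counts up to 10, 89.6% to 95.8% were even, so counts were also halved. GENCODE vM21 gave symbols for 98.2% of identifiers. From the deposited counts, genes passing filterByExpr were TMM-normalized and tested with edgeR 4.0.16 (R 4.3.3) in a quasi-likelihood fit of all 20 libraries. Log2 CPM used a prior count of 2. Receptor and PKA subunit ratios were compared with exact permutation tests. DESeq2 1.42.0, RLE normalization, no filter, compared groups only, a replicate block, another prior count, an adjusted threshold and leaving out each mouse were alternatives. A covariate of nuclear-retained RNA and omission of 4 libraries were chosen after seeing the data. The members, the gene lists and the marker lists were chosen with earlier results of these data known. Pathway genes are named where called in any of the 4 comparisons, at most 4 per list by fold change, and beside each member the 2 genes most like it. The procedure was tested on simulated data.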

Additional observations from a re-analysis of the deposited data

Results flagged for a closer look

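*Adcy4* differed between the HFD and the weight-loss effect when the difference itself was tested: the weight-loss effect was lower by 6.001 on the log2 scale in the long arm (-6.001 ± 1.01, edgeR interaction, adjusted p = 0.0217) and by 3.29 over both arms (-3.29 ± 0.62, edgeR adjusted p = 0.0152). Of 6 endothelial markers, 6 were called higher in HH and 2 lower in HHC, and their part was not tested.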

How the results depend on the processing

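Members called changed as follows. In H against C, 2 became 1 with the adjusted p threshold, with the replicate block and without the 4 libraries highest in nuclear-retained RNA, 3 with RLE normalization and with DESeq2, and 1 to 3 without any 1 mouse. In HC, 0 became 1 with DESeq2, halved counts and the nuclear-retained RNA covariate, and 0 to 1 without any 1 mouse. Under HFD over both arms, 2 became 1 with the replicate block and 1 to 2 without any 1 mouse, and after weight loss over both arms 0 became 0 to 1 without any 1 mouse.

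Pathway genes called in H (11) became 4 with the adjusted p threshold, 19 with the covariate and 7 to 12 without any 1 mouse. In HC (0) they became 4 without the filter, 2 with DESeq2, 1 with the covariate, 1 with only the compared groups and 0 to 2 without any 1 mouse. In HH (9) they became 1 with the adjusted p threshold, 4 with the replicate block, 15 with the covariate and 2 to 8 without any 1 mouse. In HHC (5) they became 0 with the adjusted p threshold, 2 without the 4 libraries, 1 with only the compared groups and 2 to 8 without any 1 mouse. Under HFD over both arms (16) they became 8 to 19 without any 1 mouse. After weight loss over both arms (4) they became 0 with the adjusted p threshold, 7 without the filter and 2 to 5 without any 1 mouse.

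Uncalled log2 fold changes turned sign. Without the 4 libraries: *Adrb3* in HC 0.21 and after weight loss over both arms 0.030, *Pde3b* in HHC 0.034, *Pde4d* in H 0.30, in HHC 0.51 and under HFD over both arms 0.088, *Prkar2b* in HC 0.019, *Prkaca* in H -0.73 and in HC 0.37, *Gnas* in H 0.55, in HC -0.49 and under HFD 0.47, and the log2 ratio of *Prkar2b* to *Prkar1a* after weight loss 0.0028. With the covariate: *Pde4d* in H 0.068, in HHC 0.15 and under HFD 0.027, *Prkar2b* in HHC -0.11 and after weight loss -0.36, *Prkaca* in H -0.27, in HHC -0.018 and after weight loss -0.099, *Gnas* in H 0.48 and under HFD 0.70. Without the filter: *Adrb3* in HC 0.017, *Prkaca* in HC 0.038 and *Pde4d* in HHC 0.047. *Pde4d* in HHC was 0.13 with RLE, 0.13 with DESeq2, 0.17 with halved counts and 0.16 with only the compared groups. With the replicate block, *Prkaca* in HC was 0.22 and *Gnas* in HHC -0.023.

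Without any 1 mouse, signs turned within these ranges: *Adrb3* in HC -0.27 to 0.26; *Adra1a* in H -0.25 to 0.33 and after weight loss -0.14 to 0.22; *Adra2a* in H -0.18 to 0.58; *Pde4d* in HH -0.24 to 0.076 and in HHC -0.55 to 0.42; *Prkar2b* in H -0.56 to 0.65, in HC -0.68 to 0.072, in HHC -0.31 to 1.49 and after weight loss -0.34 to 0.57; *Prkaca* in H -0.019 to 2.08, in HC -0.32 to 0.41, in HHC -0.0098 to 1.36, under HFD -0.52 to 0.53 and after weight loss -0.011 to 0.68; *Gnas* in HC -0.43 to 0.80, in HH -0.54 to 1.00, in HHC -1.93 to 1.23, under HFD -0.94 to 0.0075 and after weight loss -0.83 to 0.75. The ratio of *Adrb3* to *Adrb1* was -0.045 to 0.65 under HFD and -0.064 to 0.67 after weight loss, that of *Adrb3* to *Adra2a* after weight loss -0.33 to 1.48, and that of *Prkar2b* to *Prkar1a* -0.44 to 0.28. The causes were not tested.

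Whether replicate numbers pair the mice was not settled. In the short arm, deviations of same-numbered mice correlated at a median r of -0.028 (-0.59 to 0.28), against 0.048 for differently numbered mice. In the long arm the median was -0.087 for same-numbered mice. With 2 mice per group the deviations there mirror each other, so that arm cannot decide on pairing. With 2 mice per group in the long arm, fold changes there are imprecise, and *Gnas* and *Adra2a* are limited by low counts. *Gnas* is limited by its overlapping genes as well.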
